A study of Homo sapiens with 54 samples.

Results

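RNR2, the mitochondrially encoded 16S ribosomal RNA, was followed in 2 triple-negative breast cancer lines treated with the PARP inhibitor olaparib, with cisplatin (CDDP) or with both. The rule named 10 transcripts of the mitochondrial genome: RNR2, ND1, ND2, ND4, ND5, CYTB, COX1, COX2, COX3 and ATP6. A row of that name was matched for 1 of the 10 among the 27470 rows of the table, RNR2, and the other 9 were not analysed here. RNR2 passed the filter on low values in each line. The other mitochondrial ribosomal RNA in the table, RNR1 (12S), is given beside it for comparison, and it is no member.

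SUM1315 carries a BRCA1 mutation and MDA-MB-468 has wild type BRCA1, and each line had 9 conditions of 3 libraries. Parental SUM1315 cells were untreated or received 8 µM olaparib, 2 µM CDDP, 4 µM CDDP, or olaparib with either CDDP dose. Parental MDA-MB-468 cells received 3 µM olaparib, 1 µM CDDP, 2.5 µM CDDP or the combinations. OlaR cells, grown resistant to olaparib by long exposure, were kept in 25 µM (SUM1315) or 15 µM (MDA-MB-468) olaparib and were left as such or treated with the same 2 CDDP doses. No OlaR library without olaparib was analysed here, and the parental cells received less of it. OlaR against olaparib-treated parental cells therefore differs in olaparib dose and in length of exposure as well as in resistance, and these cannot be told apart. The libraries were 3′ mRNA libraries primed on A tails with oligo-dT.

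The human mitochondrial genome is transcribed into long RNAs that hold several genes. RNR2 and RNR1 lie next to each other near the start of the heavy-strand transcript and are cut out at the tRNAs that flank them. RNR2 is the RNA core of the large subunit of the mitochondrial ribosome, RNR1 that of the small subunit, and this ribosome makes the respiratory chain proteins encoded by ND, CYTB, COX and ATP genes. POLRMT transcribes the genome with TFAM and TFB2M, and MTPAP adds short A tails to mitochondrial RNAs. More than 1 change can alter an RNR2 level: in bulk samples fewer mitochondria per cell and less RNR2 per mitochondrion cannot be told apart, nor can a change in the A tail that the primer reads.

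RNR2 occupies chrM:1671-3229 of hg38 on the plus strand, a gene of 1559 bases with no intron, and RNR1 occupies chrM:648-1601, 954 bases on the same strand. The positions and names were paired in RefSeq on GRCh38.p14. Stretches of each gene are shown because oligo-dT primes on A: the 3′ end, where a tail is added, and the longest encoded run of A with 20 bases on each side. Capitals mark runs of 4 or more A.
RNR2, last 50 bases (chrM:3180-3229): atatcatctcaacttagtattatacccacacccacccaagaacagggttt
RNR2, longest A run (chrM:2437-2483): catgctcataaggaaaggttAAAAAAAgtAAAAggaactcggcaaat
RNR1, last 50 bases (chrM:1552-1601): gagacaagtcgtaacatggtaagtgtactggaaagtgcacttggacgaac
RNR1, longest A run (chrM:973-1018): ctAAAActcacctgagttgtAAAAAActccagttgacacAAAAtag
The last 50 bases of either gene hold no run of 4 A. The longest run has 7 A in RNR2 and 6 A in RNR1, and A makes up 35.1% and 33% of their bases. A table of counts per gene does not show where in the gene the reads lay.

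The table holds adjusted read counts, that is, reads per gene that the authors had scaled with edgeR to a library of 5585170 reads. The whole reads behind them numbered 2070301 to 9268162 per library, fewer in OlaR than in parental libraries (medians of 3900438 and 6173974 in SUM1315, 4455837 and 7331369 in MDA-MB-468). Libraries of a condition differed by more than sampling noise (chi-square divided by its degrees of freedom, 1.586 to 20.58). The widest spreads were in SUM1315, between replicates 2 and 3 of 2 µM CDDP (20.58) and between replicates 2 and 3 of untreated cells (18.38). Of 6 markers of blood, endothelial and stromal cells, PTPRC, CD3E, CD79A and DCN reached at most 10 reads in a library. The other two were present, COL1A1 at 74 to 831 reads in SUM1315 and 15 to 120 in MDA-MB-468, and PECAM1 at 24 to 224 and 1 to 22. Of 7 markers of epithelial cells, EPCAM, CDH1 and KRT19 averaged 3124, 821 and 13401 adjusted read counts in MDA-MB-468, but SUM1315 libraries held at most 5, 3 and 5 reads of them. KRT18 and KRT8 were present in each line (means of 346 and 74.0 in SUM1315, 696 and 674 in MDA-MB-468). KRT5 averaged 6.56 and 1427, and KRT14 was low in each (14.4 and 10.05). Of the receptors whose absence gives the triple-negative class its name, PGR reached at most 3 reads, ERBB2 averaged 39.4 and 25.3 adjusted read counts, and ESR1 averaged 3.95 in SUM1315 and 88.1 in MDA-MB-468.

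RNR2 had the most reads of all rows in 54 of 54 libraries, with 75616 to 319470 reads, or 1.97% to 4.02% of a library. Counting error was small beside this, since the 95% Wilson interval of a library's share was at most 0.0511 percentage points wide. Such intervals cover counting error only. The highest condition mean was 1.557 times the lowest in SUM1315 and 1.202 times in MDA-MB-468.

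**Figure D1:**
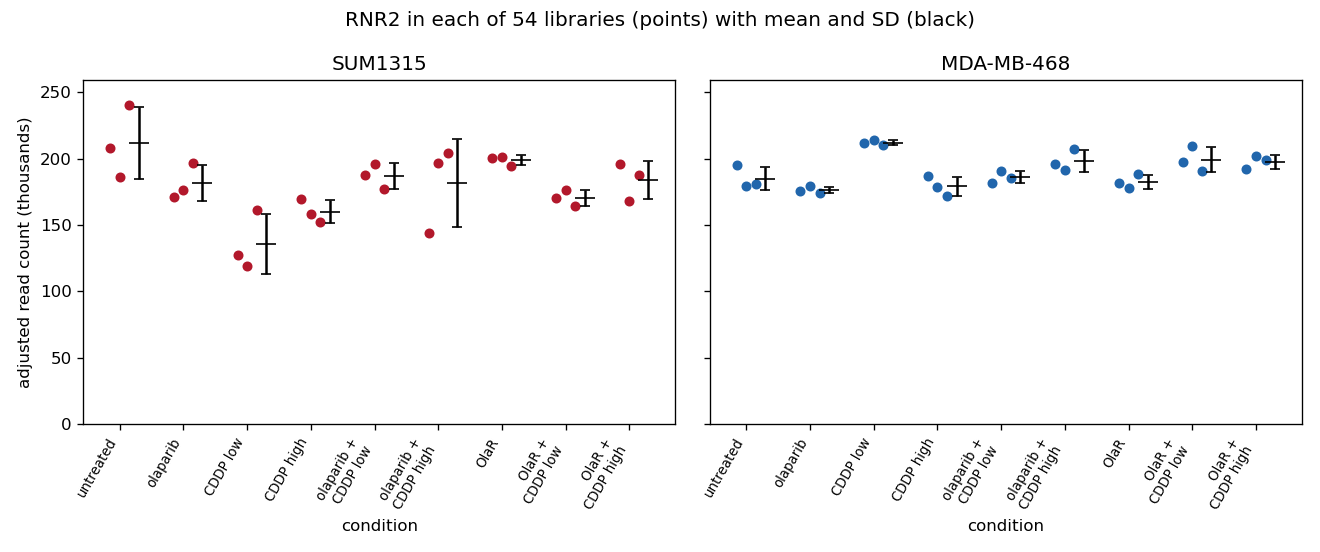
RNR2 in each of the 54 libraries. The y axis is the adjusted read count, in the units printed on the axis, and starts at 0, the x axis is the condition, points are libraries, and black bars are the mean and SD of 3 libraries. In SUM1315 the lowest condition was 2 µM CDDP (118871 to 161774), whereas in MDA-MB-468 the highest was 1 µM CDDP (210721 to 214099).

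The order of the SUM1315 condition means ran from untreated (211650 ± 27067 adjusted read counts, SD, n = 3) through OlaR (198926 ± 3599), olaparib with 2 µM CDDP (186995 ± 9532), OlaR with 4 µM CDDP (183759 ± 14361), olaparib (181682 ± 13527), olaparib with 4 µM CDDP (181629 ± 33058) and OlaR with 2 µM CDDP (170315 ± 6168) to 4 µM CDDP (160222 ± 8813) and 2 µM CDDP (135916 ± 22769). Libraries of neighbours in this order overlapped in 8 of 8 cases. In MDA-MB-468 the order ran from 1 µM CDDP (212146 ± 1750) through OlaR with 1 µM CDDP (199267 ± 9507), olaparib with 2.5 µM CDDP (198143 ± 8245), OlaR with 2.5 µM CDDP (197718 ± 5088), olaparib with 1 µM CDDP (186104 ± 4636), untreated (185148 ± 8557), OlaR (182706 ± 5099) and 2.5 µM CDDP (179270 ± 7349) to olaparib (176537 ± 2393). Neighbours overlapped in 6 of 8 cases there. The exceptions were 1 µM CDDP above OlaR with 1 µM CDDP, and OlaR with 2.5 µM CDDP above olaparib with 1 µM CDDP.

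Each line was fitted with limma on log2(adjusted read count + 1) over its 27 libraries, and p-values were adjusted over all genes tested, 13133 in SUM1315 and 13012 in MDA-MB-468. A gene was called at an adjusted p at or under 0.05. By this rule RNR2 was called in 5 of 18 pairwise comparisons, lower in 2 in SUM1315 and higher in 3 in MDA-MB-468. Over the 9 comparisons of each line, 1.42% to 47.2% of all genes were called in SUM1315 and 4.76% to 51.5% in MDA-MB-468. The number of calls alone therefore does not set RNR2 apart from other genes. None of these changes reached 2-fold.

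RNR2 was lower after CDDP alone in parental SUM1315 cells at each dose. The untreated libraries held 208373, 186371 and 240206 adjusted read counts. The 2 µM CDDP libraries held 127103, 118871 and 161774, all below the untreated ones. RNR2 thus fell by 35.8% at this dose, a log2 fold change of -0.64 (95% interval -0.93 to -0.36, adjusted p = 0.000543), in a comparison where 33.9% of genes were called and 42.4% did not overlap between the conditions. When only these 6 libraries were fitted, the adjusted p was 0.212. The 4 µM CDDP libraries held 169754, 158544 and 152369, again all below the untreated ones. RNR2 fell by 24.3% here, a log2 fold change of -0.40 (-0.68 to -0.11, adjusted p = 0.0222), where 43.9% of genes were called and 52.8% did not overlap. Its call was lost with all genes in the fit (adjusted p = 0.139), with only the 6 libraries (0.142), and with values as a share of the library total (0.109). It was also lost without replicate 3 of untreated, the highest library (log2 fold change -0.30, adjusted p = 0.0767), without replicate 2 of 4 µM CDDP (-0.39, 0.0586) or without its replicate 3 (-0.36, 0.0786). The higher dose did not give the lower level, and the 2 doses were not tested against each other.

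In parental MDA-MB-468 cells RNR2 was higher after the lower CDDP dose. The untreated libraries held 194988, 179450 and 181006 adjusted read counts and the 1 µM CDDP libraries 211616, 214099 and 210721. Every treated library lay above every untreated one, as 34.2% of genes did or the reverse. The mean was 14.6% higher, a log2 fold change of 0.20 (0.10 to 0.29, adjusted p = 0.00154), where 20% of genes were called. With all genes in the fit the adjusted p was 0.0677. After 2.5 µM CDDP the libraries held 186848, 178789 and 172174 and overlapped the untreated ones, with a log2 fold change of -0.05 (-0.14 to 0.05, adjusted p = 0.525) beside 25.1% of genes called.

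Olaparib alone gave no call of RNR2 in parental cells. SUM1315 libraries with olaparib held 171472, 176552 and 197024 adjusted read counts, of which 1 lay within the untreated range. On the log2 scale the change was -0.22 (-0.50 to 0.07, adjusted p = 0.245), where 36% of genes were called. MDA-MB-468 libraries with olaparib held 176001, 179152 and 174458. They lay below the 3 untreated ones, though the nearest pair was 179152 against 179450, and 33.8% of genes did not overlap in this comparison. The log2 fold change was -0.07 (-0.16 to 0.03, adjusted p = 0.344), where 21.5% of genes were called.

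When CDDP was added to olaparib, RNR2 was higher in MDA-MB-468 cells at the higher dose. The 3 libraries with olaparib and 2.5 µM CDDP held 195719, 191381 and 207328 adjusted read counts, all above the 3 with olaparib alone. The log2 fold change was 0.17 (0.07 to 0.26, adjusted p = 0.00677), where 23.1% of genes were called and 34.9% did not overlap. The call was lost with all genes in the fit (adjusted p = 0.141), with only these 6 libraries (0.284) and without replicate 3 of the combination (log2 fold change 0.13, adjusted p = 0.0699). The combination was also above 2.5 µM CDDP alone, by a log2 fold change of 0.14 (0.05 to 0.24, adjusted p = 0.0348), where 11.9% of genes were called and 29.9% did not overlap. That call was lost with all genes in the fit (0.288), with only these libraries (0.102), without replicate 3 of the combination (0.206), and without replicate 2 (0.096) or 3 (0.192) of 2.5 µM CDDP. Libraries with olaparib and 1 µM CDDP held 181570, 190835 and 185907, above those with olaparib alone as 18.9% of genes did or the reverse. The log2 fold change was 0.08 (-0.02 to 0.17, adjusted p = 0.437), where 5.26% of genes were called.

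In SUM1315 cells the same additions gave no call. Libraries with olaparib and 2 µM CDDP held 187683, 196165 and 177138 adjusted read counts, within the range spanned by olaparib alone. This was a log2 fold change of 0.04 (-0.24 to 0.33, adjusted p = 0.915), where 3.76% of genes were called. The libraries with olaparib and 4 µM CDDP held 143719, 196719 and 204448, so replicate 1 stood far below the rest. Against olaparib the log2 fold change was -0.02 (-0.30 to 0.27, adjusted p = 0.969, 8.44% of genes called), and 0.15 without that library. Against 4 µM CDDP it was 0.17 (-0.12 to 0.45, adjusted p = 0.512, 12.8% of genes called).

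RNR2 was not called between OlaR and olaparib-treated parental cells. The SUM1315 OlaR libraries held 200851, 201153 and 194773 adjusted read counts and overlapped those of parental cells with olaparib. The log2 fold change was 0.13 (-0.15 to 0.42, adjusted p = 0.462), although 47.2% of genes were called. The MDA-MB-468 OlaR libraries held 181664, 178209 and 188246, with a log2 fold change of 0.05 (-0.05 to 0.14, adjusted p = 0.399) beside 51.5% of genes called. With DESeq2 size factors in edgeR's test on the recovered reads this value was 0.09 (adjusted p = 0.0372), among adjusted p-values of 0.0372 to 0.72 over its alternatives.

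CDDP in OlaR cells moved the mean of RNR2 down in SUM1315 and up in MDA-MB-468, without a call. SUM1315 OlaR libraries with 2 µM CDDP held 170448, 176415 and 164081, all below OlaR alone, as 21.4% of genes did or the reverse. They differed by -0.22 on the log2 scale (-0.51 to 0.06, adjusted p = 0.507), where 1.42% of genes were called. With 4 µM CDDP they held 195869, 167894 and 187515, which overlapped OlaR alone (-0.12, -0.40 to 0.17, adjusted p = 0.632, 16.7% of genes called). MDA-MB-468 OlaR libraries with 1 µM CDDP held 197776, 209431 and 190593, all above OlaR alone (0.12, 0.03 to 0.22, adjusted p = 0.124). In this comparison 4.76% of genes were called and 23.3% did not overlap. With 2.5 µM CDDP they held 192195, 202213 and 198747, again all above OlaR alone (0.11, 0.02 to 0.21, adjusted p = 0.0849), where 18.7% of genes were called and 34.2% did not overlap. The edgeR quasi-likelihood test with TMM on the recovered reads called RNR2 in these MDA-MB-468 comparisons (adjusted p = 0.0357 at 1 µM and 0.0125 at 2.5 µM). Over all alternatives the adjusted p ranged from 0.0266 to 0.433 at 1 µM and from 0.0101 to 0.367 at 2.5 µM.

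**Figure D2:**
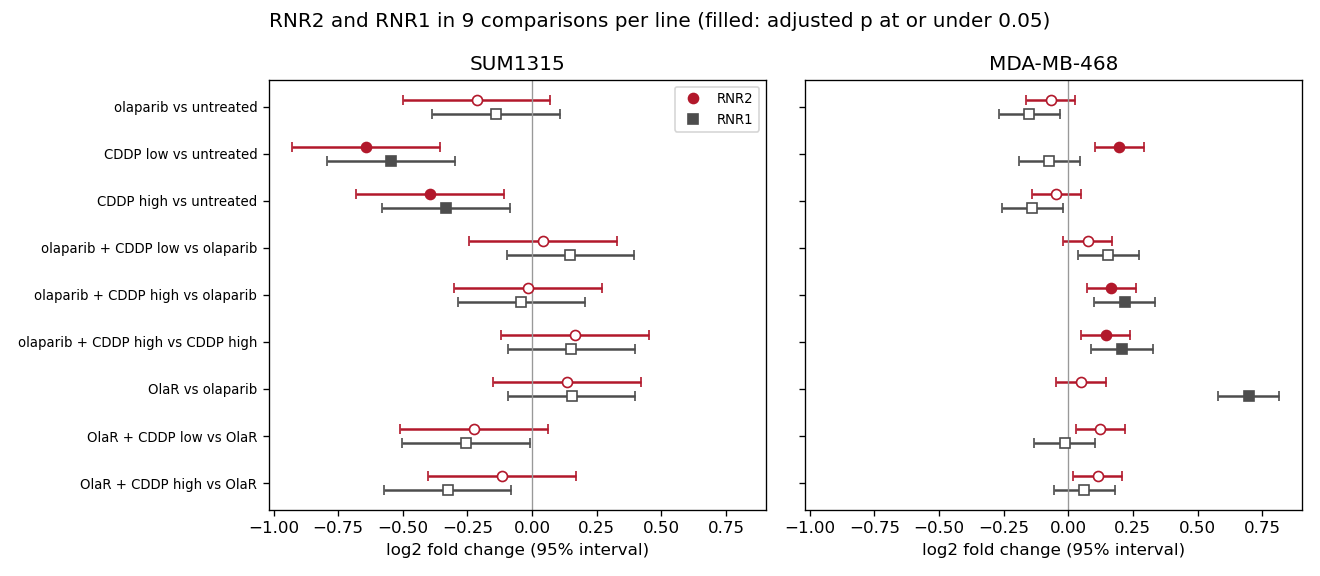
Log2 fold changes of RNR2 (red circles) and RNR1 (grey squares) in 9 comparisons per line, on the x axis, with bars for the 95% interval from limma. Filled symbols passed the threshold of 0.05, and each comparison on the y axis has 3 libraries on either side. RNR2 was filled in 2 comparisons in SUM1315 and in 3 in MDA-MB-468, and RNR1 stood at 0.70 for MDA-MB-468 OlaR against olaparib, where RNR2 was at 0.05.

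The difference between effects was tested directly. The response to the higher CDDP dose in OlaR cells minus that in olaparib-treated parental cells was -0.10 on the log2 scale in SUM1315 (-0.51 to 0.30, adjusted p = 0.826) and -0.05 in MDA-MB-468 (-0.19 to 0.08, adjusted p = 0.678). Of all genes, 6.4% and 15% were called in these interactions. Between the lines, the effect of the higher CDDP dose on RNR2 was lower in SUM1315 by -0.35 (-0.63 to -0.06, adjusted p = 0.0598), where 27.5% of 14460 genes were called. Its adjusted p ranged from 0.0114 to 0.269 over the alternatives. It was at or under the threshold with each edgeR test, with DESeq2, with a pseudocount of 5, and without SUM1315 untreated replicate 2 (-0.44), 2 µM CDDP replicate 2 or 3, or olaparib with 4 µM CDDP replicate 1 (-0.35 each). The lines differed by 0.08 in OlaR against olaparib (-0.20 to 0.37, adjusted p = 0.668, 41.7% of genes called). They differed by -0.23 in the effect of the higher CDDP dose in OlaR cells (-0.52 to 0.05, adjusted p = 0.366, 5.44% of genes called). CDDP and olaparib doses differed between the lines.

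RNR1 was called lower with RNR2 after CDDP in SUM1315, and it was called higher in MDA-MB-468 OlaR cells, where RNR2 was not called. In SUM1315, RNR1 fell by 31.5% after 2 µM CDDP (34054 ± 6128 to 23330 ± 4195 adjusted read counts, adjusted p = 0.000655) and by 21.3% after 4 µM (to 26786 ± 1786, adjusted p = 0.0251). Its calls were lost with only the groups compared (adjusted p = 0.104 and 0.106), and at 4 µM also with all genes in the fit (0.0745) and as a share of the library total (0.154). Without untreated replicate 3 the 4 µM value was -0.20 (adjusted p = 0.187), and without 4 µM CDDP replicate 3 it was -0.28 (0.11). In parental MDA-MB-468 cells RNR1 was higher, as RNR2 was, with olaparib and 2.5 µM CDDP against olaparib (0.22, adjusted p = 0.00404) and against CDDP (0.21, adjusted p = 0.0126). It was not called without replicate 3 of the combination (0.16, adjusted p = 0.074, and 0.15, adjusted p = 0.156). Of the 27 fits that left out 1 library, 26 and 25 kept the call. Over the other alternatives the adjusted p reached 0.0514 and 0.103. After 1 µM CDDP, where RNR2 was at 0.20, RNR1 was at -0.07 (adjusted p = 0.434). In MDA-MB-468, RNR1 held 23758, 24738 and 25151 adjusted read counts with olaparib and 39040, 38786 and 41722 in OlaR cells. RNR1 was thus higher by 0.70 on the log2 scale (adjusted p = 1.24e-14, standard error 0.06), and by 0.66 to 0.72 when each library was left out. OlaR against olaparib differed between the lines in RNR1, by -0.55 in SUM1315 relative to MDA-MB-468 (standard error 0.14, adjusted p = 0.00178).

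The number of RNR2 reads per RNR1 read in a library needs no scaling between libraries. It is a ratio of reads and not of molecules, since the primer may read the 2 genes differently. Exact nuclear copies also differ, at 15.7% of the 50-base stretches of RNR2 and 43.6% of those of RNR1. In MDA-MB-468 it was 6.30 to 8.33 (median 7.14) in the 18 parental libraries and 4.48 to 5.53 (median 4.76) in the 9 OlaR libraries, so that the ranges did not meet. Untreated cells had 7.05, 6.35 and 7.01 RNR2 reads per RNR1 read, cells with olaparib 7.41, 7.24 and 6.94, and OlaR cells 4.65, 4.59 and 4.51. The highest ratios belonged to 1 µM CDDP, at 8.33, 8.25 and 8.02. OlaR and olaparib-treated parental cells, compared within each CDDP dose, differed by -0.54 in the log2 ratio (9 against 9 libraries, two-sided exact permutation test within dose, p = 0.00025, the smallest it can give). At a single dose the test cannot go below 0.1, and 3 of 3 doses gave that value in MDA-MB-468. This test was chosen after the values were seen, when the MDA-MB-468 libraries at each dose were already known not to overlap. Its p-value in MDA-MB-468 was thus fixed in advance and adds nothing to the ranges above. The OlaR libraries of a line come from the same resistant derivative. A p-value from them therefore cannot measure the spread between separately derived resistant cells. In SUM1315 the ratio was 5.36 to 6.67 (median 5.85) in parental and 5.51 to 7.21 (median 5.98) in OlaR libraries, with a difference of 0.09 (exact permutation test, p = 0.112). The part of the lower depth of OlaR libraries in this was not tested, and depth was lower in OlaR cells of each line.

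**Figure D3:**
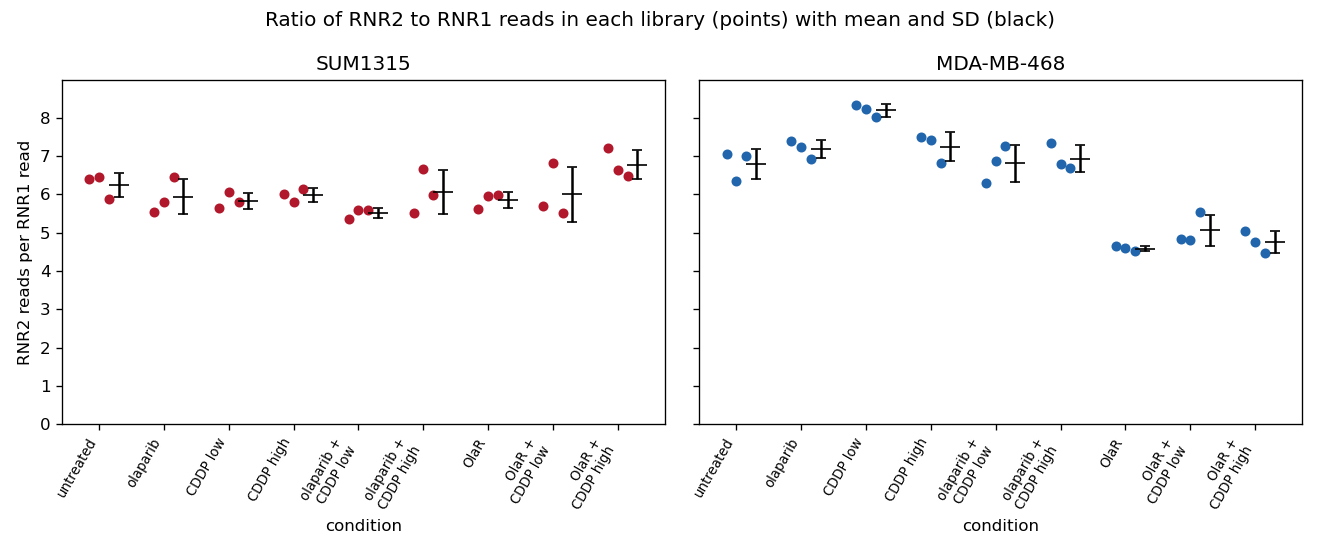
RNR2 reads per RNR1 read in each library. The y axis is the ratio and starts at 0, the x axis is the condition, points are libraries, and black bars are the mean and SD of 3 libraries. The 9 MDA-MB-468 OlaR libraries lie at 4.48 to 5.53, below the 18 parental ones at 6.30 to 8.33, whereas parental and OlaR libraries of SUM1315 overlap.

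RNR2 has copies in the nuclear genome. Of the 1510 words of 50 bases in RNR2, the length of a read here, 15.7% had an exact copy in a nuclear chromosome, and 43.6% of the 905 in RNR1 did. Reads from such stretches cannot be assigned to 1 place. The table has rows for 10 of the nuclear copies named MTRNR2L, which carry short open reading frames related to the humanin peptide encoded within RNR2. They matched RNR2 at 78.5% (MTRNR2L5) to 95.4% (MTRNR2L2) of aligned bases. Their means summed to 457.3 adjusted read counts in SUM1315 and 690.6 in MDA-MB-468, or 0.255% and 0.362% of RNR2. MTRNR2L3 (chromosome 20, 57358433 to 57359039, minus strand, 82.5% identical to the 3′ part of RNR2) was the highest, with means of 212.5 and 454.3. It moved in opposite directions in the 2 lines. After 4 µM CDDP in SUM1315 it was 152.7 ± 16.9 against 256.5 ± 13.9 untreated (log2 fold change -0.75, adjusted p = 0.000117). After 2.5 µM CDDP in MDA-MB-468 it was 536.5 ± 29.4 against 358.3 ± 54.0 (0.59, adjusted p = 2.51e-06). After 1 µM CDDP in MDA-MB-468, where RNR2 was 14.6% higher, MTRNR2L3 was 617.7 ± 43.9 (0.79, adjusted p = 3.5e-09). Whether reads of these rows came from the nuclear copies or from RNR2 was not tested.

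Nuclear genes of the respiratory chain called after 1 drug alone in parental cells were nearly all higher, whether RNR2 was lower (SUM1315 with CDDP), higher (MDA-MB-468 with 1 µM CDDP) or not called. After 2.5 µM CDDP in MDA-MB-468, however, 44 of 74 were not called. The list of 74 tested nuclear genes of complexes I, III, IV and ATP synthase, whose products assemble with proteins made on the RNR2 ribosome, held 59 that were higher and 1 that was lower with 2 µM CDDP in SUM1315, and 58 and 4 with 4 µM. Their median log2 fold changes were 0.54 and 0.58, beside 0.015 and -0.0031 over all genes, where 33.9% and 43.9% of all genes were called, and RNR2 fell in the same libraries. Olaparib gave 56 higher and 1 lower (median 0.57 beside -0.0026), where 36% of all genes were called. The number higher was 53 to 60 in these 3 comparisons when each of the 27 libraries was left out. NDUFB3, a complex I subunit, rose from 182.8 ± 84.0 to 586.3 ± 21.4 adjusted read counts after 4 µM CDDP (log2 fold change 1.78, adjusted p = 1.12e-09). CYC1, cytochrome c1 of complex III, rose by 0.83 on the log2 scale (adjusted p = 1.58e-07). NDUFA4, a subunit associated with complex IV, rose by 1.27 (adjusted p = 1.1e-09), and USMG5, an ATP synthase subunit, by 1.40 (adjusted p = 1.8e-11). Complex II is not in this list. Its largest call in the same comparison, SDHD, was also higher, by 1.57 to 2.14 when each library was left out. When values were taken as a share of the library total, the median of all genes after 4 µM CDDP alone shifted by 0.12 and the list of 74 had 64 higher and 2 lower. The 3 comparisons share the untreated libraries. The rise after CDDP was not seen where the comparison left these libraries out. CDDP added to olaparib gave 3 higher and 0 lower at 2 µM (median -0.014, 3.76% of all genes called). At 4 µM it gave 1 higher and 11 lower (median -0.12, 8.44%). In OlaR cells 2 µM CDDP gave 0 higher and 0 lower (1.42% of all genes called), and 4 µM gave 0 higher and 8 lower (16.7%).

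In parental MDA-MB-468 cells the same list had 51 higher and none lower after olaparib, 44 higher and 1 lower after 1 µM CDDP and 29 higher and 1 lower after 2.5 µM. The medians were 0.29, 0.21 and 0.13, beside 0.011, -0.0068 and 0.0086 over all genes. Of all genes, 21.5%, 20% and 25.1% were called in these comparisons. The number higher after 2.5 µM was 21 to 31 when each library was left out. With 2.5 µM CDDP added to olaparib, RNR2 was higher and 23.1% of all genes were called. Of the 74 genes, 49 were lower and 1 higher (median -0.26 beside -0.0015). As a share of the library total, 34 were lower and 2 higher. In OlaR cells against olaparib-treated parental cells the list had 34 higher and 12 lower in SUM1315 (median 0.22 beside -0.045), where 47.2% of all genes were called. In MDA-MB-468 it had 18 higher and 22 lower (median -0.03 beside -0.03, which turned to 0.01 beside 0.02 with median-ratio scaling), and 51.5% of all genes were called in that comparison. ATP5J2, an ATP synthase subunit, rose in each line (log2 fold change 1.10, adjusted p = 8.38e-07, and 1.30, adjusted p = 1.49e-21). UQCRFS1, the Rieske protein of complex III, fell by 1.06 on the log2 scale in MDA-MB-468 (adjusted p = 2.11e-20). In SUM1315 the largest calls of complexes I and III were lower, NDUFA10 at -1.18 to -0.93 and UQCRC2 at -0.81 to -0.69 when each library was left out. That of complex IV was higher, COX5B at 0.55 to 0.66. In MDA-MB-468, NDUFB1 of complex I was at -0.98 to -0.88 and COX4I1 of complex IV at 0.59 to 0.70.

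The proteins that RNR2 assembles with in the mitochondrial ribosome were counted separately by subunit. Of 49 tested large-subunit (MRPL) genes, 4 µM CDDP in SUM1315 gave 37 higher and 2 lower (median 0.58), and 2.5 µM in MDA-MB-468 gave 11 higher and 3 lower (median 0.06). MRPL32 had the largest change in SUM1315, at 437.9 ± 28.5 against 182.8 ± 65.0 adjusted read counts (log2 fold change 1.32, adjusted p = 3.73e-07). Of 29 small-subunit genes, 16 were higher and 2 lower in SUM1315 (median 0.33) and 3 higher and 1 lower in MDA-MB-468 (median 0.02). Of all genes, 43.9% and 25.1% were called in these comparisons, so that the calls in MDA-MB-468 (14 of 49 and 4 of 29) were near or under the share of all genes. In OlaR against olaparib-treated parental cells, 18 MRPL genes were higher and 5 lower in SUM1315 (median 0.16), a share near the 47.2% of all genes called. In MDA-MB-468, where RNR2 was not called, 6 were higher and 29 lower (median -0.27), beside 51.5% of all genes called. With the small-subunit genes included, 26 of 78 were higher and 8 lower in SUM1315 (median 0.17 beside -0.045 over all genes). In MDA-MB-468, 10 of the 78 were higher and 40 lower (median -0.19 beside -0.03). MRPL49 was lowest there relative to parental cells with olaparib, at 160.7 ± 13.6 against 330.6 ± 79.4 (-1.01, adjusted p = 1.96e-09). Olaparib alone had itself moved the 78 genes in parental cells. Against untreated MDA-MB-468 cells it gave 32 higher and 0 lower (median 0.17 beside 0.011, 21.5% of all genes called). In SUM1315 it gave 33 higher and 14 lower (median 0.27 beside -0.0026, 36% of all genes called). OlaR cells were not tested against untreated cells.

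**Figure D4:**
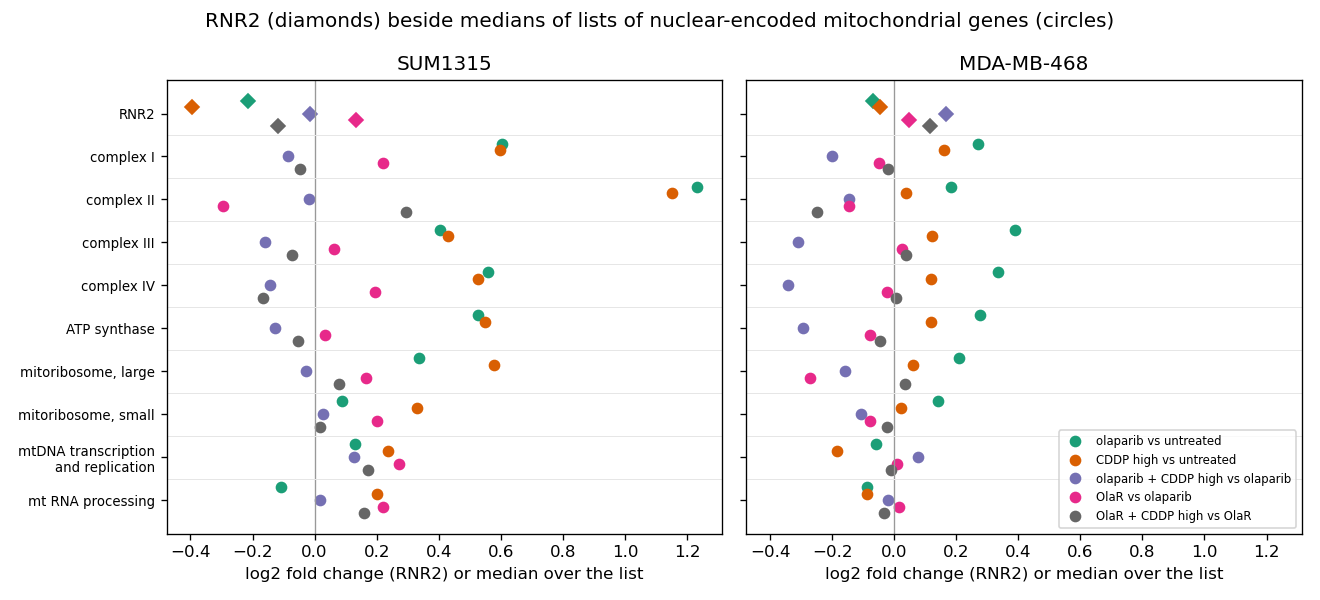
RNR2 (diamonds, its log2 fold change) beside lists of nuclear-encoded mitochondrial genes (circles, the median log2 fold change of the list's tested genes), in 5 comparisons given by colour. The x axis is log2 and the y axis names RNR2 and the lists. In SUM1315, complexes I, III and IV and ATP synthase had medians of 0.60, 0.43, 0.53 and 0.55 after 4 µM CDDP, where RNR2 was at -0.40.

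Of 17 tested genes of transcription and replication, 4 µM CDDP in SUM1315 gave 5 higher and 1 lower, and 2.5 µM in MDA-MB-468 gave 3 lower and none higher, each a smaller share than the 43.9% and 25.1% of all genes called. TFAM, which packs mitochondrial DNA and starts its transcription, rose from 493.6 ± 65.5 to 721.2 ± 22.3 adjusted read counts after 4 µM CDDP in SUM1315 (log2 fold change 0.55, adjusted p = 0.00019), the comparison in which RNR2 fell. In OlaR against olaparib-treated parental cells TFAM fell by 0.59 on the log2 scale in SUM1315 (adjusted p = 7.18e-05) and by 0.25 in MDA-MB-468 (adjusted p = 0.000318). TWNK, the mitochondrial DNA helicase, rose in the same comparisons (0.61, adjusted p = 0.000501, and 0.97, adjusted p = 8.58e-08), but olaparib had lowered it in parental cells, and OlaR levels (213.4 ± 10.04 and 203.2 ± 8.7) stayed under the untreated means of 319.9 ± 23.7 and 231.7 ± 18.6. PPARGC1A, a coactivator that raises mitochondrial gene expression, was 42.6 ± 8.2 in SUM1315 OlaR cells against 10.3 ± 8.5 with olaparib (log2 fold change 2.21, adjusted p = 0.00141). In MDA-MB-468 it was 113.5 ± 11.4 against 6.93 ± 4.75 (4.13, adjusted p = 3.2e-11). Untreated parental cells held 32.9 ± 12.3 and 17.5 ± 6.5. PPARGC1A was lower after the higher CDDP dose in parental cells, at 11.03 ± 11.09 in SUM1315 (-1.83, adjusted p = 0.00755) and 6.56 ± 6.22 in MDA-MB-468 (-1.52, adjusted p = 0.0085). These calls at few reads were lost with only the groups compared (adjusted p = 0.0501 and 0.0638). They were also lost without replicate 1 of 4 µM CDDP in SUM1315 (-1.27) and without replicate 1 (-1.22) or 2 (-1.19) of 2.5 µM CDDP or untreated replicate 1 (-1.32) in MDA-MB-468, and there with all genes in the fit (0.0515). ESRRA, another regulator, was higher after 4 µM CDDP in SUM1315, by 2.89 to 3.97 on the log2 scale when each library was left out. Over the other alternatives its change was 2.34 to 3.41 (adjusted p at most 0.00273), so its size depended on the processing.

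Among 26 tested genes of RNA processing and stability, 11 were higher and 4 lower in SUM1315 OlaR cells and 6 higher and 7 lower in MDA-MB-468 OlaR cells, beside 47.2% and 51.5% of all genes called. MTPAP, which adds the A tails, fell in MDA-MB-468, at 90.5 ± 6.6 against 193.5 ± 9.7 adjusted read counts (log2 fold change -1.09, adjusted p = 2.77e-09). SLIRP, which stabilises mitochondrial mRNAs with LRPPRC, rose by 1.00 on the log2 scale in SUM1315 and fell by 0.47 in MDA-MB-468 (adjusted p = 3.19e-11). Whether MTPAP or SLIRP had a part in the read counts of RNR2 and RNR1 was not tested. RRM2B, a ribonucleotide reductase subunit that supplies mitochondrial DNA synthesis, was lower in SUM1315 OlaR cells (91.6 ± 8.1 against 245.4 ± 20.6, -1.41, adjusted p = 4.58e-08).

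The genes whose 9 condition means were most like those of RNR2 were found by Pearson correlation of mean log2 values. In SUM1315 they were KDM5A (r = 0.945), TLCD2 (0.91) and ZNF276 (0.89), among 10117 genes. In MDA-MB-468 they were PRPF38B (0.938), PDE12 (0.912) and LUC7L3 (0.9), among 10090. These are descriptions over 9 points that share libraries and scaling. RNR1 had r = 0.908 with RNR2 in SUM1315 and 0.254 in MDA-MB-468, and MTRNR2L3 had 0.416 and 0.17.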

How the data were processed

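RNA from 54 libraries of SUM1315 and MDA-MB-468 cells was sequenced as 3′ mRNA libraries of 50-base reads. The submitters' processing notes name CASAVA 1.8.2, FastQC, STAR, HTSeq, edgeR and hg38, and the annotation and the counting mode are not given in the sources used here. The deposited signal in the authors' table is the reads per gene adjusted with edgeR to 5585170 reads per library. The whole reads behind it were found by undoing that step, and 100% of 1483380 values were given back within a relative difference of 1e-06. The authors' deposited fold changes and p-values against untreated cells were not used. No column of the table was without a sample (0).

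Genes reaching 10 in 3 or more libraries of the line were fitted with limma 3.58.1 (trend, all 27 libraries of the line) on log2(value + 1), which understates changes of low genes, with Benjamini-Hochberg adjustment. Differences between lines were fitted over all 54 libraries. Labels do not say that the libraries are separate cultures, so p-values measure the spread between these libraries, which may be technical. The libraries were multiplexed in batches, and which ones shared a batch is not given in the sources used here. The transcripts, gene lists and tests were chosen with earlier results of these data known. Besides RNR2, RNR1 and the nuclear copies, genes were named from 15 fixed regulators and subunits and from the 3 genes most like RNR2 per line. The called gene of each list with the largest change after the higher CDDP dose or in OlaR cells could also be named. Not all genes picked this way are given here, and those left out include changes in each direction. Lists were described by counts and medians, without a set test. Alternatives were no filter, a pseudocount of 5, median-ratio scaling, share of the library total, a fold limit of 2, fits of only the groups compared, a replicate block, leaving out each library, and edgeR 4.0.16 and DESeq2 1.42.0 tests on the recovered reads, in R 4.3.3. The other scalings and left-out libraries for the gene lists, and the test of the RNR2 to RNR1 ratio, were chosen after seeing the data. The limma fit was tested on simulated data that had the same dispersion in every gene and condition. That test therefore does not show how the fit behaves where the spread differs between conditions, as it did for RNR2.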

Additional observations from a re-analysis of the deposited data

Results flagged for a closer look

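Effects of some genes differed between the lines or between OlaR and parental cells by a test of the difference itself (limma, adjusted p at or under 0.05). Doses differed between the lines, and differences are SUM1315 minus MDA-MB-468 on the log2 scale. Of 14460 genes, 41.7% were called in the line difference for OlaR against olaparib and 27.5% in that for the higher CDDP dose. A call of a single gene is therefore common in these comparisons. For OlaR against olaparib-treated parental cells, the difference was -0.55 for RNR1 (adjusted p = 0.00178), 0.66 for MTRNR2L3 (0.00189), -1.92 for PPARGC1A (0.0454), 1.48 for SLIRP (4.59e-19), -0.34 for TFAM (0.0237) and 0.53 for UQCRC1 (0.000331). For the higher CDDP dose against untreated cells, it was -1.34 for MTRNR2L3 (5.88e-08), -0.76 for MTRNR2L2 (0.0322), 1.09 for ATP5A1 (2.33e-08) and 0.42 for CYC1 (0.012). Within SUM1315, the response of MTRNR2L8 to 4 µM CDDP differed between OlaR and olaparib-treated parental cells by -1.27 (0.0486), and this row held 28 to 117 reads per library. In that interaction 6.4% of genes were called.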

How the results depend on the processing

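RNR2 kept its direction under every alternative run in every comparison but 1. The exception was olaparib with 4 µM CDDP against olaparib in SUM1315 (-0.02, not called), which was 0.0014 with DESeq2 and with DESeq2 size factors in edgeR, 0.066 as a share of the library total, and -0.11 to 0.15 when each library was left out. No call of RNR2 had a 2-fold change, so a fold limit of 2 removed all 5 (log2 fold changes of -0.64 and -0.40 in SUM1315, and 0.20, 0.17 and 0.14 in MDA-MB-468). With no filter the calls at -0.40, 0.20, 0.17 and 0.14 were lost, and with only the groups compared those at -0.64, -0.40, 0.17 and 0.14. As a share of the library total RNR2 after 4 µM CDDP in SUM1315 was -0.27 and not called. The cause of these losses was not tested. Fits of only the groups compared had fewer libraries, and the spread of RNR2 also differed between conditions (SD of 12.8% of the mean in untreated SUM1315 and 1.81% in its OlaR cells). Leaving out each library gave -0.48 to -0.30 for 4 µM CDDP against untreated in SUM1315, 0.13 to 0.19 for olaparib with 2.5 µM CDDP against olaparib, 0.11 to 0.17 for the same against 2.5 µM CDDP, and -0.44 to -0.25 for the difference between lines after the higher CDDP dose. That difference (-0.35) gained a call with DESeq2 (-0.37), with edgeR (-0.37 with DESeq2 size factors, -0.33 with TMM) and with a pseudocount of 5 (-0.35). In MDA-MB-468 OlaR cells, 2.5 µM CDDP gained a call with DESeq2 and edgeR with DESeq2 size factors (0.13 each), edgeR with TMM (0.12), only the groups compared (0.11) and share of total (0.14), with 0.10 to 0.14 when each library was left out. There, 1 µM CDDP gained one with DESeq2 and with edgeR (0.13 each), and OlaR against olaparib with DESeq2 size factors in edgeR (0.087). RNR1, which was not called in either comparison, turned to 0.0033 (MDA-MB-468 OlaR with 1 µM CDDP, -0.086 to 0.083 without each library) and 0.039 (SUM1315 olaparib with 4 µM CDDP against olaparib, -0.14 to 0.053) as a share of the library total.

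As a percent of the library total, RNR2 relative to untreated cells was 1.13 after 1 µM CDDP, 0.918 with olaparib, 0.932 in OlaR and 1.03 in OlaR with 2.5 µM CDDP in MDA-MB-468, and 0.824 after 4 µM CDDP, 0.941 with olaparib and 2 µM CDDP and 0.837 in OlaR with 2 µM CDDP in SUM1315. Share of total moved the median of all genes by up to 0.126 and the share of higher calls among all genes by up to 22.5 percentage points.

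Same-numbered libraries did not deviate together (correlations of -0.0977 to 0.163), so the numbers were not used as pairs. A replicate block left 0.14 for olaparib with 2.5 µM CDDP against 2.5 µM CDDP in MDA-MB-468, with an adjusted p of 0.0573 (adjusted p of 0.00219 to 0.288 over all alternatives), and changed no other call of RNR2. It kept the number of genes called at 0.939 to 1.03 times the number without it.

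Counts of all genes called moved by over 1.5 times in 5 comparisons with only the groups compared (4458 to 2914 and 494 to 79 for 2 µM CDDP in SUM1315 without and with olaparib, 187 to 17 in its OlaR cells, 685 to 162 and 619 to 286 for 1 µM CDDP in MDA-MB-468 with olaparib and in OlaR cells). With edgeR they did in 3 (187 to 89, 619 to 377 or 367, and 786 to 451 or 416 for the difference between lines in OlaR cells), with DESeq2 in 1 (494 to 789), and with the fold limit in all 23 (23 to 3097 called).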
